A study of Mus musculus with 6 samples.

Results

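The keratin genes of the mouse were described across 6 prostate samples. Keratins are the intermediate filament proteins of epithelial cells, and each filament is built from pairs of an acidic type I and a basic type II chain. Which pair a cell makes marks its kind: Krt5 with Krt14 or Krt15 in the basal layer, Krt8 with Krt18 in luminal and other simple epithelial cells, and Krt4 with Krt13 or Krt1 with Krt10 in the upper layers of stratified, squamous epithelium. In prostate research these genes are used to tell basal from luminal cells and to recognise squamous change.

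Members were all gene symbols made of Krt and a digit, without keratin-associated proteins and pseudogenes. This gave 52 of the 24421 genes listed, of which 46 had at least 1 read and 21 passed the filter for testing (at least 1 CPM, reads per 1000000 reads counted in genes, in at least 2 samples). By type, the 52 comprised 4 basal keratins, 5 of luminal and simple epithelium, 16 squamous and suprabasal, 24 of the hair follicle and hair shaft, and 3 others. The numbers past the filter were 4, 5, 10, 1 and 1.

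RNA sequencing was done on prostates of PB-Cre4 mice, a prostate cancer model in which Cre recombinase is made under a probasin promoter, itself driven by androgens in prostate epithelium. Both groups carried the same genotype, the conditional deletion included: 2 samples were intact and 4 castrated (Cx), and neither age nor time since castration is in the labels. Castration withdraws the androgens that prostate epithelium depends on, and the comparison shows how keratin RNA differed between the conditions. Reads in genes ranged from 43679297 to 59170793 per sample, so 0 reads in a sample allow up to 3 reads, or 0.0507 to 0.0687 CPM, for counting error only. Whether each sample is its own animal is not in the labels, and the p-values reflect sample-to-sample spread alone, which may be technical. Levels below are rescaled CPM, which are CPM divided by a size factor per sample, and log2 differences are castrated minus intact on log2(rescaled CPM + 0.5).

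The epithelial identity of the tissue was clear in all samples: the adhesion gene Epcam was at 745 to 1131 and the E-cadherin gene Cdh1 at 1224 to 1779. The type I genes lie on chromosome 11 and the type II genes on chromosome 15, with 1 exception among those past the filter. That gene, Krt18 (chromosome 15, 102028180 to 102032027, GRCm38), is the type I partner of Krt8 and lies beside it (101996698 to 102004482). Upstream sequence was shown for 1 basal gene (Krt5), the 2 squamous genes with the widest fold range over castrated samples among those with a sequence (Krt13 and Krt10) and 1 luminal gene that varied little (Krt18). Each line gives the 250 bases before the RefSeq start of the gene (GRCm38.p6), 5′ to 3′ on the strand of the gene: Krt5 at chr15:101712906-101713155 (minus strand), Krt13 at chr11:100121567-100121816 (minus), Krt10 at chr11:99389365-99389614 (minus) and Krt18 at chr15:102027966-102028215 (plus). Capitals mark matches on either strand to ATAAAA and TATAAA (letters of the TATA box, which overlap where TATAAAA occurs), TGANTCA (bound by AP-1 factors) and AGAACA (one arm of the palindromic site bound by androgen and glucocorticoid receptors).
Krt5: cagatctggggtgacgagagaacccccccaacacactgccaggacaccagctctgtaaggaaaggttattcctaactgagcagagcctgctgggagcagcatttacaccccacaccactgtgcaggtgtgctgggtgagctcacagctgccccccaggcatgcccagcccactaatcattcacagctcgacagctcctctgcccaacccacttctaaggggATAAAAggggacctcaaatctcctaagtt
Krt13: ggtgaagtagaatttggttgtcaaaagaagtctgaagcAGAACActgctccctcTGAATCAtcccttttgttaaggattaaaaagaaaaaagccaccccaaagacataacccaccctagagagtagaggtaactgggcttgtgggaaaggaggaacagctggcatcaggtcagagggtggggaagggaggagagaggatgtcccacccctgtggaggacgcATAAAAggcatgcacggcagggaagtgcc
Krt10: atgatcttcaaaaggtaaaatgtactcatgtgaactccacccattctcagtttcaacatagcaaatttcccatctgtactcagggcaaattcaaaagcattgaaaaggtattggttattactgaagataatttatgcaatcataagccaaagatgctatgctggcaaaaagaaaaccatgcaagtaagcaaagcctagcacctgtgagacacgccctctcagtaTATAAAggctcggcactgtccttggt
Krt18: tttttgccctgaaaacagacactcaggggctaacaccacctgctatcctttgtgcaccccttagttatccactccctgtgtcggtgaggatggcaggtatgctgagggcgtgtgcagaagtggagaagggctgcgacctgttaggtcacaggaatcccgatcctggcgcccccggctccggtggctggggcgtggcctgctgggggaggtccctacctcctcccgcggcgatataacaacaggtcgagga

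RefSeq windows were found for 12 of the 21 keratins past the filter, with 13 start sites. ATAAAA on the sense strand lay within the last 40 bases before the start in 7 of these 13 windows (Krt5, Krt7, Krt13, Krt20, Krt23, Krt75 and Krt78; in Krt7 at 7 to 2 bases before it), against 2.18% of all 32851 windows. This motif was searched for after the sequences were seen. In Krt10, TATAAA stands at 26 to 21 bases before the start, and 12.4% of all windows held TATAAA anywhere. Krt13 has AGAACA at 212 to 207 and TGANTCA at 196 to 190 bases before the start. Of the 13 keratin windows, 2 held AGAACA (Krt13 and Krt78) and 2 held TGANTCA (both of Krt13), against 16.1% and 6.75% of all windows. The Krt18 window held none of the 4. A match is a run of letters and shows no binding.

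No keratin passed the threshold between castrated and intact prostates. In limma with Benjamini-Hochberg adjustment over 13898 genes, 0 of 21 keratins were called, beside 1.97% of all genes tested (1.27% lower and 0.698% higher). At an unadjusted p under 0.05 there were 2, both lower in castrated samples (15.9% of all genes, and 8.06% lower). edgeR on the recovered reads also called 0 of 21 (1.46% of all genes, 1.07% lower and 0.389% higher), with 3 at an unadjusted p under 0.05. DESeq2 called 3 of 20 given an adjusted p (9.3% of all genes, 4.54% lower and 4.76% higher): Krt17 and Krt75 lower and Krt6b higher. Of these, Krt75 and Krt6b passed the filter only through the group in which they were higher. On data simulated from these libraries DESeq2 made a larger share of false calls than limma or edgeR (30.8% against 6.08% and 6.17%), which bears on each DESeq2 call given here. The simulation drew each gene independently with dispersions estimated by edgeR. It therefore followed the model of edgeR and held no sample order shared between genes, so these shares may differ in the real data. The median log2 difference over the 21 was -0.35, against 0.00 over all genes tested. The castrated samples themselves differed widely: the log2 range over the 4 had a median of 2.71 over the keratins and 0.47 over all genes, while the 2 intact samples lay 0.49 and 0.16 apart.

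**Figure D1:**
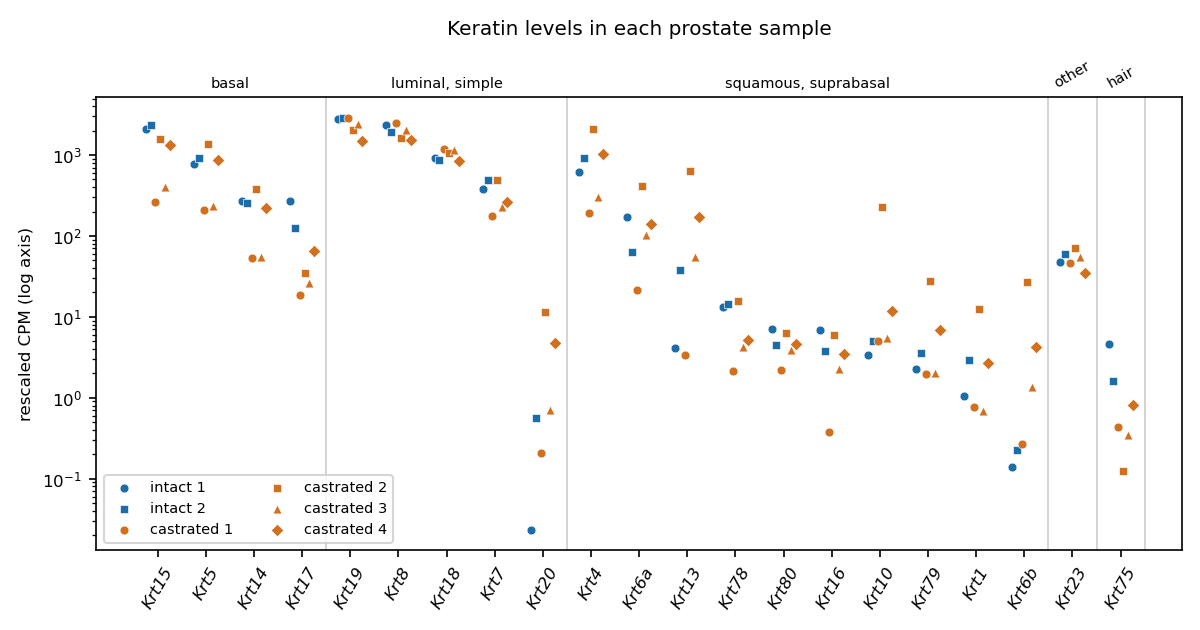
Rescaled CPM (log axis) of the 21 keratins past the filter, grouped by type, with 1 point per sample: blue for the 2 intact and orange for the 4 castrated samples. The luminal genes Krt8, Krt18 and Krt19 sit in narrow bands, while castrated samples 1 and 3 lie below castrated samples 2 and 4 in every basal and squamous keratin shown.

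The 4 basal keratins all had negative log2 differences, with a median of -1.38, and none passed the threshold. Krt5, the type II keratin of the basal layer (chromosome 15, 101707070 to 101712898), was at 785 and 908 in intact samples 1 and 2, against 209, 1364, 236 and 871 in castrated samples 1 to 4. Its type I partner Krt14 (chromosome 11, 100203162 to 100207548) was at 272 and 253 in intact and at 53.3, 376, 55.2 and 223 in castrated samples. Castrated samples 1 and 3 were low and castrated sample 2 was above both intact samples in each gene, so the groups overlapped. The log2 differences were -0.78 for Krt5 (95% interval -2.68 to 1.12, limma adjusted p = 0.706) and -1.06 for Krt14 (-3.05 to 0.93, adjusted p = 0.615). In bulk tissue, fewer cells of a type and less RNA per cell cannot be told apart.

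Krt15 and Krt17 were below the intact range in all 4 castrated samples. Krt15, a type I keratin of basal and stem-like epithelial cells (chromosome 11, 100131758 to 100135928), was at 2096 and 2383 in intact and at 263, 1582, 400 and 1347 in castrated samples. Its log2 difference was -1.70 (interval -3.51 to 0.11, limma adjusted p = 0.343). Krt17, a type I keratin of basal cells and of stressed or wounded epithelium (chromosome 11, 100256217 to 100261029), was at 269 and 126 in intact samples. In castrated samples it was at 18.7, 35.1, 26.2 and 64.9. The means were 198 ± 101 (SD, n = 2) and 36.2 ± 20.3 (n = 4), and the log2 difference was -2.48 (interval -3.71 to -1.25, limma adjusted p = 0.0733). Without castrated sample 4 Krt17 passed at a limma adjusted p of 0.0129, and it did not pass without castrated sample 1, 2 or 3. Its log2 difference was -1.94 without intact sample 1 and -3.03 without intact sample 2. Calls over all genes moved likewise. They numbered 274 of 13898 with all samples, 1052 of 13786 without castrated sample 4, and 78, 83 and 46 without castrated samples 1, 2 and 3. The gained call is therefore no trait of Krt17. The groups did not overlap in 4 of the 21 keratins, 3 lower (Krt15, Krt17 and Krt75) and 1 higher (Krt6b), beside 26.6% of all genes tested, 13.2% lower and 13.4% higher. Krt75 passed the filter through intact samples alone, and Krt6b through castrated samples alone. For both genes the filter itself favours separate groups, so their separation is no support for a difference.

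Within each sample, the other basal keratins were compared with Krt5 as a ratio of reads, which does not depend on the scaling between samples. Krt15 had 2.67 and 2.62 reads per Krt5 read in intact samples, against 1.26, 1.16, 1.69 and 1.55 in castrated samples 1 to 4. The intact values were close to each other and all 4 castrated values lay below them, also in castrated samples 2 and 4, where Krt5 was within or above the intact range. For Krt17 the ratios were 0.342 and 0.139 in intact and 0.0897, 0.0258, 0.111 and 0.0745 in castrated samples. Those of Krt14 were 0.346 and 0.279 against 0.256, 0.276, 0.234 and 0.257, so the groups were separate by a small margin. Of the 20 other keratins tested, the ratio to Krt5 was lower without overlap in these 3 (0.763% of all genes) and higher in Krt10, Krt20, Krt6b and Krt79 (4.84% of all genes). Krt20 and Krt6b passed the filter through castrated samples alone. These ratios were chosen after the values were seen and were not tested. Of the 50-base stretches in Krt14 transcripts, 13.9% also occur in another gene (Krt16 or Krt17), against 3.99% for Krt17, 0.640% for Krt15 and 12.2% for Krt5, and reads from such stretches may be lost or misassigned.

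**Figure D2:**
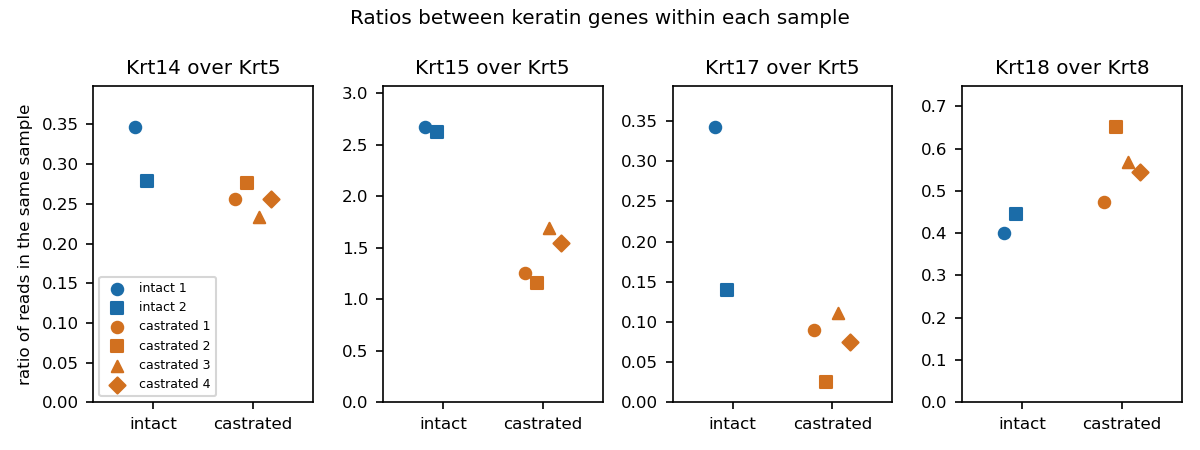
Ratio of reads between keratin genes in the same sample, with 1 point per sample and each vertical axis starting at 0. Krt15 over Krt5 is 2.62 or more in intact and 1.69 or less in castrated samples, and Krt18 over Krt8 is 0.445 or less in intact and 0.473 or more in castrated samples.

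Basal markers that are not keratins moved partly with these genes. Of 10 tested, 2 fell in limma (1.27% of all genes), among them Lamb3, a gene for a chain of the basement membrane protein laminin. Lamb3 was at 106 and 98.5 in intact samples. In castrated samples 1 to 4 it was at 40.1, 43.8, 42.3 and 47.4, without the wide spread of Krt5. The median of the 10 was -0.77. Their median log2 range over the castrated samples was 1.17, against 2.65 for the basal keratins. Their summed level was 1423 to 1441 in intact and 708 to 1157 in castrated samples, and none was at 0. Trp63, the transcription factor that defines basal cells, was at 47.5 and 70.4 in intact samples. In castrated samples 1 to 4 it was at 29.7, 77.3, 23.2 and 82.7, low in the same 2 samples as Krt5. Trp63 had 0.0605 and 0.0775 reads per Krt5 read in intact and 0.142, 0.0567, 0.0983 and 0.0949 in castrated samples, so this ratio overlapped. The part of basal cell number in the keratin values was not tested.

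Of the 5 keratins of luminal and simple epithelium, Krt8, Krt18 and Krt19 had the smaller differences and Krt7 and Krt20 the larger, and none passed the threshold in limma (0 at an unadjusted p under 0.05), edgeR or DESeq2. Krt8 was at 2331 and 1926 in intact and at 2499, 1613, 2024 and 1532 in castrated samples, a log2 difference of -0.17 (interval -0.75 to 0.40, limma adjusted p = 0.799). Krt18 was at 933 and 858 against 1182, 1049, 1148 and 834, a difference of 0.22 (-0.19 to 0.64, adjusted p = 0.610). For both genes the groups overlapped. Krt19, a type I keratin of simple and of many basal epithelia (chromosome 11, 100140810 to 100148665), was at 2784 and 2898 in intact and at 2906, 2025, 2413 and 1502 in castrated samples. Its difference was -0.40 (-1.06 to 0.26, adjusted p = 0.563), with castrated sample 4 the lowest. Together these 3 intervals reach from -1.06 to 0.64. Other luminal markers were mixed. Of 8 tested, 2 fell in limma (1.27% of all genes), among them the androgen receptor target Tmprss2 (not called in edgeR). The median of the 8 was -0.10, with a summed level of 2970 to 3148 in intact and 2281 to 3205 in castrated samples.

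Although neither gene changed by the test, the ratio of Krt18 to Krt8 did not overlap between groups. It was 0.400 and 0.445 in intact and 0.473, 0.650, 0.567 and 0.544 in castrated samples, and was not tested. This ratio was chosen after the values were seen, and the ratio to Krt8 was higher without overlap in 12.7% of all genes tested. Of the 50-base stretches of Krt8, 29.7% also occur in another gene, the pseudogene Krt8-ps among them, against 0.720% for Krt18. Krt19 over Krt8 overlapped, at 1.19 and 1.5 against 1.16, 1.26, 1.19 and 0.980.

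Krt7 and Krt20, also grouped with simple epithelium, behaved differently from Krt8 and Krt18 among the castrated samples. Krt7, a type II keratin of ducts and of urothelium, was at 384 and 492 in intact and at 175, 498, 225 and 259 in castrated samples (log2 difference -0.70, interval -1.64 to 0.24, limma adjusted p = 0.459). Krt20, a type I keratin of urothelial umbrella cells and gut epithelium, had 1 read in intact sample 1 and was at 0.558 in intact sample 2. In castrated samples 1 to 4 it was at 0.209, 11.4, 0.701 and 4.77, high in the samples that were also high for Krt5. Its log2 difference was 1.86 (interval -0.87 to 4.60, limma adjusted p = 0.510; DESeq2 3.87, adjusted p = 0.0621). Urothelial markers were present: 5 of 6 were tested, 0 were called in limma, edgeR or DESeq2 (limma gave 0 at an unadjusted p under 0.05). The summed level of the 6 was 61.8 to 196 in intact and 65.8 to 190 in castrated samples. Upk3a, a uroplakin of umbrella cells, was at 0.677 and 1.94 in intact and at 2.56, 7.39, 1.95 and 12.4 in castrated samples. Upk2 was at 2.33 and 6.82 in intact and at 0.891, 5.30, 1.46 and 2.43 in castrated samples. Upk1a was at 39.2 and 113 against 42.7, 90.5, 17.9 and 137, and Upk1b at 19.6 and 73.4 against 57.1, 83.8, 44.3 and 30.9. Of these 4 uroplakins Upk3a alone kept the groups apart, beside 26.6% of all genes tested (13.4% higher). Upk3b did not exceed 0.157 in any sample. Upk3bl, a related gene, was at 0.0467 and 0.541 in intact and at 0.0190, 2.83, 0.158 and 1.66 in castrated samples, high in castrated samples 2 and 4 as Krt20 was. The part of urothelium in the Krt7 and Krt20 values was not tested.

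**Figure D3:**
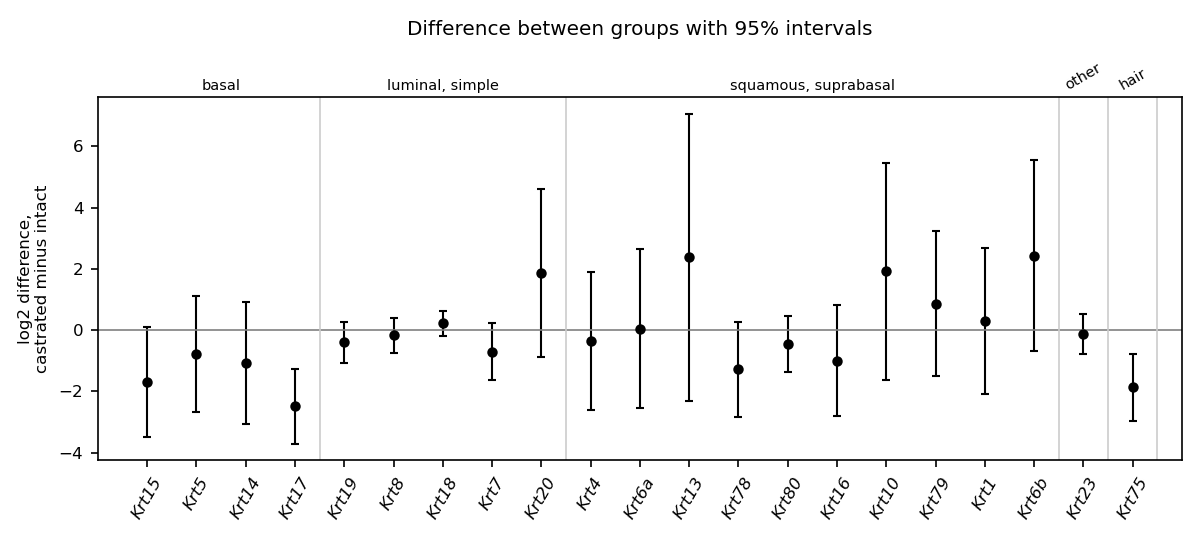
Log2 difference, castrated minus intact, of the 21 keratins past the filter, as the limma estimate (points) with its 95% interval (bars). The intervals of Krt17 (-3.71 to -1.25) and Krt75 (-2.95 to -0.79) lie below 0, and those of Krt8, Krt18 and Krt19 are among the narrowest.

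The squamous keratins gave the widest spread, and it lay within the castrated group. Of 10 tested, 0 passed the threshold in limma (0 at an unadjusted p under 0.05), 0 in edgeR and 1 in DESeq2 (Krt6b), with 6 log2 differences above and 4 below 0 (median 0.17). In all 10 the highest castrated sample was castrated sample 2, which was the highest castrated sample in 14.0% of all genes tested. Castrated sample 1 was the lowest in 9 of the 10, and in 30.3% of all genes. In each of the 14 basal and squamous keratins tested, castrated samples 2 and 4 were both above castrated samples 1 and 3, an order found in 23% of all genes and noticed after the values were seen. The median log2 range over the castrated samples was 3.48 for the squamous and 2.65 for the basal keratins, against 0.95 for the luminal ones.

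Krt4 and Krt13 pair in the suprabasal layers of mucosal squamous epithelium, and Krt4 is also a marker of progenitor-like luminal cells of the mouse prostate. Krt4 (chromosome 15, 101918535 to 101924735) was at 624 and 926 in intact and at 194, 2117, 301 and 1033 in castrated samples. Krt13 (chromosome 11, 100117327 to 100121566) was at 4.13 and 37.7 in intact and at 3.41, 635, 54.8 and 170 in castrated samples. The highest castrated value of Krt13 was 186-fold above the lowest, and the intact samples differed 9.13-fold. Krt13 had 0.00662 and 0.0407 reads per Krt4 read in intact and 0.0176, 0.300, 0.182 and 0.165 in castrated samples, so this pair did not keep a fixed ratio. The log2 differences were -0.35 for Krt4 (interval -2.59 to 1.90, limma adjusted p = 0.915) and 2.39 for Krt13 (-2.30 to 7.08, adjusted p = 0.632). Leaving out 1 sample moved the Krt13 difference widely, to 0.86 without intact sample 1, 3.91 without intact sample 2, 3.77 without castrated sample 1 and 1.32 without castrated sample 2. The sign for Krt4 was positive in edgeR (0.23), DESeq2 (0.23), limma with sample weights (0.03) and without castrated sample 1 (0.19).

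Krt1 and Krt10, the pair of keratinised layers such as epidermis, were low except in castrated sample 2. Krt10 (chromosome 11, 99385254 to 99389364) was at 3.39 and 4.97 in intact and at 4.97, 229, 5.47 and 11.9 in castrated samples (log2 difference 1.92, interval -1.64 to 5.48, limma adjusted p = 0.607). Without castrated sample 2 the log2 difference of Krt10 was 0.68. Krt1 was at 1.05 and 2.90 in intact and at 0.759, 12.5, 0.684 and 2.66 in castrated samples, and its log2 difference of 0.29 became -0.45 without castrated sample 2. Krt1 thus stayed far below Krt10 there. The 8 skin genes looked at other than keratins were close to absent: 5 had 0 reads, among them Flg2, Lce1a1 and Lce3c. Their summed level was 1.81 to 1.84 in intact and 0.664 to 1.45 in castrated samples. Lor, the loricrin gene, gave almost all of that, at 1.80 and 1.76 in intact and 0.645, 0.806, 0.807 and 1.42 in castrated samples. Genes listed below with the cornified envelope were mixed, and some were high in castrated sample 2 as Krt10 was. Krtdap was at 1.05 and 1.81 in intact and at 0.152, 20.7, 0.298 and 1.58 in castrated samples. Dmkn was at 9.46 and 10.9 in intact and at 5.03, 65.0, 9.89 and 18.6 in castrated samples.

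Krt6a, Krt6b and Krt16 are the keratins of wounded or rapidly dividing stratified epithelium. Krt6a (chromosome 15, 101689910 to 101694307) was at 172 and 62.8 in intact and at 21.3, 420, 104 and 140 in castrated samples, with a log2 difference of 0.04 (interval -2.55 to 2.64, limma adjusted p = 0.992). Krt6b (chromosome 15, 101676023 to 101680287) had 19 reads in both intact samples together, at 0.140 and 0.227. In castrated samples it was at 0.266, 27.2, 1.35 and 4.25, all above the intact values, with a log2 difference of 2.44 (-0.69 to 5.56, adjusted p = 0.435) that was 1.47 without castrated sample 2 and 3.19 without castrated sample 1. Krt6a and Krt6b are near-identical copies: 57.2% and 50.1% of their 50-base stretches occur in another gene, each in the other among them, so the division of reads between them is uncertain. Other genes on the opposite strand cover 24.8% of the exon bases of Krt6a. Krt16 was at 6.84 and 3.75 in intact and at 0.379, 5.89, 2.28 and 3.43 in castrated samples (log2 difference -1.0, interval -2.80 to 0.81), and shares 37.6% of its stretches with other genes. Unlike its usual partner Krt6a, it was not above the intact samples in castrated sample 2.

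Among the remaining squamous keratins, Krt79, of the hair follicle opening and gland ducts, was at 2.24 and 3.54 in intact and at 1.99, 27.8, 2.02 and 6.92 in castrated samples. Krt78 was at 13.3 and 14.2 against 2.16, 15.9, 4.30 and 5.14, with a log2 difference of -1.28 (interval -2.84 to 0.28, limma adjusted p = 0.409). Krt80, found in many epithelia, was at 7.07 and 4.48 against 2.22, 6.23, 3.89 and 4.62. Castrated sample 2 was again the highest castrated sample in each, but only for Krt79 was it far above both intact samples. The cornea keratin Krt12 did not pass the filter: it had 0 reads in intact samples and 255 in castrated samples, where it was at 0, 3.92, 0.140 and 0.451, and an antisense gene covers 54.4% of its exon bases. The other 5 squamous keratins below the filter (Krt2, Krt9, Krt24, Krt76 and Krt77) did not exceed 0.340 in any sample.

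Of the hair keratins 1 passed the filter. Krt75, a type II keratin of the hair follicle sheath, was at 4.58 and 1.62 in intact and at 0.436, 0.125, 0.351 and 0.805 in castrated samples, the reverse of the squamous order in castrated sample 2, which was lowest. Its log2 difference was -1.87 (interval -2.95 to -0.79, limma adjusted p = 0.104). It passed without castrated sample 4 (limma adjusted p = 0.0459), where 1052 of 13786 genes passed. Of the other 23, 6 had 0 reads (Krt26, Krt34, Krt35, Krt40, Krt72 and Krt82) and 17 had reads. The highest of these was Krt33b at 2.18 in castrated sample 2, against 0.403 or less in the other 5 samples. Krt23, a type I keratin of glandular tissue, was at 48.2 and 60.5 in intact and at 46.2, 70.1, 54.5 and 34.4 in castrated samples, with a log2 difference of -0.12 (-0.77 to 0.53, adjusted p = 0.893). Krt42 and Krt222 stayed at or below 0.767.

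Levels were compared between genes after division by the union exon length. In intact samples the order of mean rescaled CPM per kilobase was Krt19 (1531 ± 43.5, SD, n = 2), Krt15 (1267 ± 115), Krt8 (1087 ± 146), Krt18 (623 ± 37.0), Krt5 (385 ± 39.6), Krt4 (363 ± 100.1), Krt14 (149 ± 7.38), Krt17 (127 ± 64.8), Krt7 (62.1 ± 10.9) and Krt6a (48.5 ± 31.9). The neighbours Krt15 and Krt8, Krt5 and Krt4, Krt14 and Krt17, Krt17 and Krt7, and Krt7 and Krt6a overlapped by SD. With the length of the principal transcript in place of all exons, Krt7 was at 107 and Krt6a at 51.5, and this last pair no longer overlapped. In castrated samples the mean order was Krt19 (1192 ± 321, n = 4), Krt8 (979 ± 227), Krt18 (733 ± 109), Krt15 (508 ± 376), Krt4 (427 ± 415), Krt5 (305 ± 252) and Krt13 (118.5 ± 158). Each neighbouring pair in this order overlapped by SD between samples. Within each castrated sample, however, Krt19 was above Krt8 and Krt8 above Krt18. These 3 genes had the smallest SDs relative to their means.

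The makeup of keratin RNA followed from this. Basal keratins held 33.0% and 34.7% of the keratin signal per kilobase in intact samples, against 6.95%, 28.4%, 10.04% and 31.5% in castrated samples 1 to 4. Squamous keratins held 6.66% and 8.58% in intact and 2.57%, 26.8%, 5.83% and 15.4% in castrated samples. The luminal share was 59.8% and 56.0% in intact, 89.7% and 83.2% in castrated samples 1 and 3, and 44.1% and 52.5% in castrated samples 2 and 4. The basal to luminal ratio was 0.551 and 0.619 in intact and 0.0775, 0.644, 0.121 and 0.600 in castrated samples. Castrated samples 2 and 4 thus had a basal share close to, and a little below, that of intact samples and a larger squamous share, while in castrated samples 1 and 3 the basal share was far lower and the squamous share was also below both intact values. Krt4, also a progenitor-like luminal marker, gave most of the squamous signal: 434 of 492 per kilobase in intact sample 2, 992 of 1655 in castrated sample 2 and 484 of 650 in castrated sample 4. Krt19, also made in many basal epithelia, gave 1501 of 3395 of the luminal signal in intact sample 1. The shares are therefore of gene groups, not of cell types. Type I over type II keratins per kilobase gave 1.88 and 1.96 in intact and 1.75, 1.28, 1.80 and 1.39 in castrated samples, below the intact values in all 4. All keratins together took 1.05% and 1.08% of reads in genes in intact and 0.752%, 1.21%, 0.721% and 0.846% in castrated samples.

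**Figure D4:**
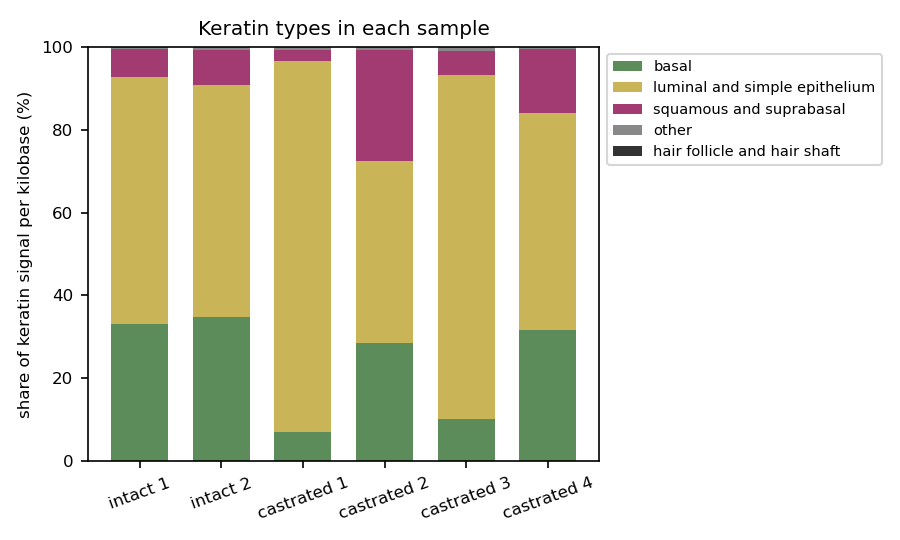
Share of the keratin signal (rescaled CPM per kilobase of exon) held by each keratin type in each sample, as stacked bars that sum to 100%. Squamous and suprabasal keratins hold 26.8% in castrated sample 2 and 2.57% in castrated sample 1, and most of this signal is Krt4.

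Other genes of the keratin cytoskeleton were read from the same fit. Of 53 tested in the 4 lists 1 passed the threshold, close to the share of 1.97% over all genes tested. Synm, the intermediate filament protein synemin, which is mainly a muscle protein, was at 18.8 and 21.3 in intact and at 7.87, 8.61, 6.59 and 10.5 in castrated samples. It fell by 1.23 on the log2 scale (interval -1.71 to -0.75, limma adjusted p = 0.0405) and was also called in edgeR and DESeq2. The limma call was kept without castrated sample 4 and lost without castrated sample 1, 2 or 3. Calls over all genes moved the same way, from 274 of 13898 to 1052 of 13786 without castrated sample 4. They numbered 46 to 83 without each of castrated samples 1 to 3. With each sample left out in turn the log2 difference of Synm ranged from -1.34 to -1.12. The limma call was also lost with no filter (adjusted p = 0.0756), with CPM as deposited (0.0518) and with the replicate number as a block (0.0511). Among 10 other intermediate filaments tested, the next smallest p-values were those of the lamin gene Lmna (-0.40, adjusted p = 0.122) and of nestin, Nes (-0.41, adjusted p = 0.484).

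Desmosomes anchor keratin filaments at cell junctions. Of 15 desmosome and plakin genes tested, 0 were called, with a median of -0.24 (1 at an unadjusted p under 0.05 in limma, 0 called in edgeR and 0 in DESeq2). The plakophilin gene Pkp3 had a log2 difference of -0.38 (adjusted p = 0.240), Fam83h, which organises keratin filaments, -0.24 (0.320) and desmoglein Dsg2 -0.27 (0.361). Castrated sample 2 was the highest castrated sample in 12 of the 15 and castrated sample 1 the lowest in 14. Dsg3, the desmoglein of basal and squamous cells, was at 13.4 and 13.5 in intact and at 1.74, 60.9, 8.12 and 32.3 in castrated samples, the order of Krt13.

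Cornified envelope genes, which encode the protein shell of terminally differentiated squamous cells, had a median of 0.91, with 0 of 14 called. There were 2 at an unadjusted p under 0.05 in limma (15.9% of all genes), 0 called in edgeR and 1 in DESeq2 (9.3% of all genes). Castrated sample 2 was the highest castrated sample in 11 of the 14. The involucrin gene Ivl was at 1.91 and 7.26 in intact and at 4.51, 65.2, 3.66 and 56.0 in castrated samples. The repetin gene Rptn was at 0.0233 and 0.279 in intact and at 0.626, 43.0, 0.754 and 1.82 in castrated samples. Both Sprr3 and Cnfn had 0 reads in intact samples and were at 12.2 and 9.45 in castrated sample 2. Ivl was thus high in castrated samples 2 and 4, and Rptn, Sprr3 and Cnfn in castrated sample 2 alone.

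Other genes of that list did not share the order. Csta1, a cystatin A gene with close paralogs, was at 7.10 and 6.70 in intact and at 85.0, 55.6, 67.2 and 9.999 in castrated samples (log2 difference 2.54, limma adjusted p = 0.185), lowest in castrated sample 4. Sprr2a3, a small proline-rich protein gene with close paralogs, was at 49.0 and 112 in intact and at 297, 160, 371 and 72.9 in castrated samples (1.35, adjusted p = 0.402), highest in castrated samples 1 and 3. Lor had a log2 difference of -0.71 (limma adjusted p = 0.291). Of the 14 cornified envelope genes, 3 were higher without overlap (Csta1, Rptn and Scel) and 1 lower (Lor). Rptn passed the filter through castrated samples alone. The shares over all genes tested were 13.4% and 13.2%, or 26.6% in either direction.

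**Figure D5:**
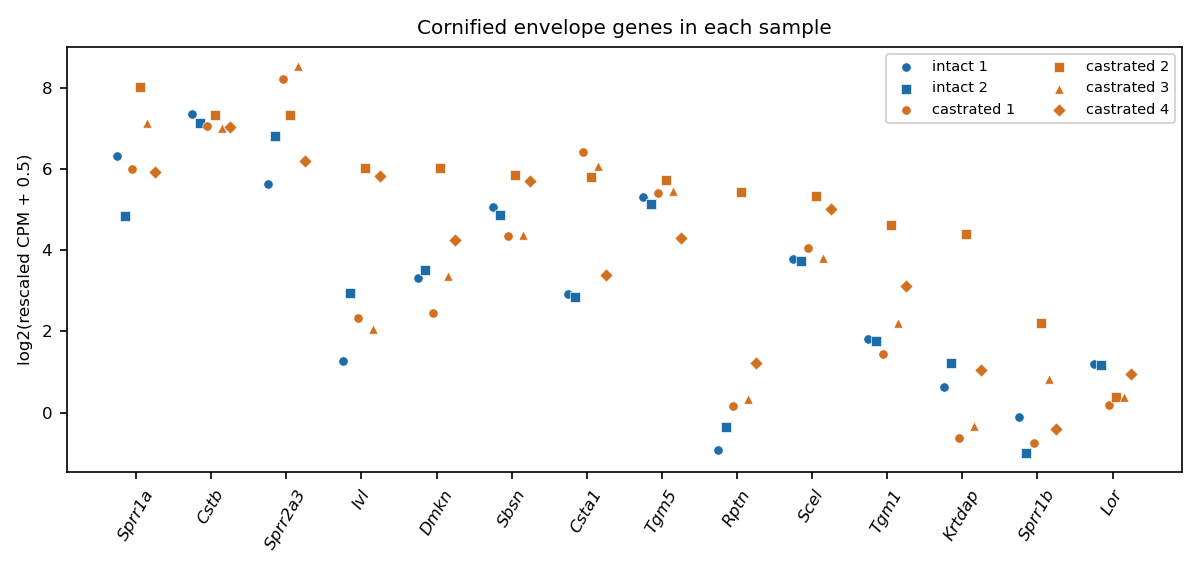
Levels of the 14 cornified envelope genes past the filter on the log2(rescaled CPM + 0.5) scale, with 1 point per sample (blue intact, orange castrated). Castrated sample 2 (orange square) is the highest castrated sample in 11 genes, while Sprr2a3 and Csta1 are highest in castrated samples 3 and 1.

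Regulators of keratin genes gave 0 calls of 14 in limma and 0 in edgeR, with a median of -0.23. In limma 3 had an unadjusted p under 0.05 (15.9% of all genes), and DESeq2 called 2 (9.3% of all genes). Tfap2c, an AP-2 factor, was at 34.9 and 33.0 in intact and at 21.6, 20.7, 17.1 and 21.7 in castrated samples (log2 difference -0.74, limma adjusted p = 0.0552). Klf4, a factor of suprabasal differentiation, was at 37.7 and 32.0 against 48.9, 44.4, 46.4 and 42.8 (0.39, adjusted p = 0.151), and the epithelial factor Grhl2 at 174 and 187 against 157, 161, 150 and 146 (-0.23, adjusted p = 0.257). In all 3 the groups did not overlap and the castrated samples lay close together, but these 3 were named for their small p. Over the 14, 1 was higher and 3 were lower without overlap, beside 26.6% of all genes tested. Castrated sample 2 was the highest castrated sample in 7 of the 14 and castrated sample 1 the lowest in 5. Grhl3 was at 3.48 and 8.72 in intact and at 0.531, 20.3, 2.14 and 11.6 in castrated samples, the order of Krt13.

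Markers of other cell types and states moved as follows. Of 8 progenitor-like luminal markers 1, Prom1, fell in limma (1.27% of all genes). The median of the 8 was -0.44, with a summed level of 12732 to 15599 in intact and 11784 to 17176 in castrated samples. Among them Psca was at 5.98 and 98.6 in intact and at 0.152, 387, 2.86 and 63.2 in castrated samples, the order of Krt13. Of 6 epithelial markers 0 were called in limma (3 at an unadjusted p under 0.05, beside 15.9% of all genes) or edgeR. DESeq2 called 1 lower, Cdh1 (4.54% of all genes). The median of the 6 was -0.35, with a summed level of 4433 to 4547 in intact and 3170 to 3933 in castrated samples, none at 0. Of 8 stromal markers 0 were called in limma or edgeR. In limma 4 had an unadjusted p under 0.05, 3 higher and 1 lower (15.9% of all genes). DESeq2 called 3 smooth muscle genes higher, Acta2, Myh11 and Tagln (4.76% of all genes). The collagen genes had log2 differences of -1.58 (Col3a1), -0.95 (Col1a1) and -0.68 (Col1a2). The median of the 8 was 0.16, with a summed level of 1469 to 1491 in intact and 799 to 1407 in castrated samples, none at 0. Of 7 proliferation genes 0 were called in limma (1 at an unadjusted p under 0.05), edgeR or DESeq2. The median of the 7 was -0.24, with a summed level of 383 to 422 in intact and 298 to 419 in castrated samples. Seminal vesicle genes were absent, with 4 of 8 (Svs1, Svs3a, Svs4 and Svs6) at 0 reads and a summed level of at most 0.161. The part of these cell types in the keratin values was not tested.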

How the data were processed

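RNA was sequenced from 2 intact and 4 castrated prostate samples, grouped by the labels' titles. The authors deposited CPM values per gene for each sample; TopHat2, HTSeq, edgeR and the build mm10 are named in the submitters' processing notes, and their settings and strand use are not given in the sources used here. In the deposited CPM, 100% of values were whole multiples of 1 read (tolerance 1e-06), so reads were recovered. Rescaled CPM are CPM over a median-of-ratios size factor (0.981 to 1.05). Genes reaching 1 CPM in 2 or more samples were fitted with limma 3.58.1 (R 4.3.3) on log2(rescaled CPM + 0.5), with a mean-variance trend, two-sided, at a Benjamini-Hochberg threshold of 0.05. edgeR 4.0.16 and DESeq2 1.42.0 were run on the recovered reads as alternatives, beside other pseudocounts, filters and scalings, sample weights, the replicate number as a block, and each sample left out. The code was tested on simulated data.

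Keratins at 5 rescaled CPM or more in either group, or with an unadjusted p under 0.05, were named, with called partner genes and the 3 of smallest p per list. Members and lists were chosen with earlier results of these data known. Positions and exon lengths are from GENCODE M21 (GRCm38, the assembly of mm10); Krt85 had no match there. Flg, Krt3, Krt87 and Krt90 were not analysed here. The deleted gene and some marker genes are not reported here by name.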

Additional observations from a re-analysis of the deposited data

Results flagged for a closer look

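In a group of 4 samples, a value counts as far from the others when its gap to the nearest of them exceeds Dixon's 95% critical share of the group's range. Of 33 genes looked at in the castrated samples, 3 had such a value, and all 3 were squamous keratins in castrated sample 2. The gap was taken on rescaled CPM, not on the log2 scale used for testing. Several of these genes also shared the same sample order. The nominal rate of about 1 in 20 groups therefore does not apply, and the count cannot be read as an excess over chance. Krt10 was at 229 rescaled CPM, with the next castrated sample at 11.9. Krt6b was at 27.2, with the next at 4.25, and Krt1 at 12.5, with the next at 2.66.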

How the results depend on the processing

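The count of called keratins was 0 in limma and edgeR, and under the other limma settings that kept all samples, the replicate block among them, except array weights. It was 2 with array weights (Krt17 and Krt75), which called 954 of 13898 genes, and 3 in DESeq2, beside 9.3% of all genes. With 1 castrated sample left out it was from 0 to 2. The count of 2 came without castrated sample 4, where 1052 of 13786 genes were called. Called partner genes numbered 1 in limma and edgeR. They numbered 0 with no filter (170 of 19505 genes called) or with CPM as deposited (249 of 13898). With array weights there were 4 and in DESeq2 5, where the counts over all genes were larger too. With 1 castrated sample left out there were 0 to 3, the 3 without castrated sample 4. With the replicate block, 1 partner gene was called, Csta1 in place of Synm, beside 417 of 13898 genes. The labels do not say what a replicate number shares, and deviations of same-numbered samples correlated across genes at 0.075 and 0.23, for 2 pairs. The differently numbered intact sample 1 and castrated sample 3 gave 0.11. With 2 intact samples their deviations mirror each other, so these correlations cannot decide whether samples are paired. Signs reversed in 4 of the 21 keratins, none of them called: Krt23 with array weights (0.10) and the block (0.075), Krt4 with array weights (0.027), in edgeR (0.23) and in DESeq2 (0.23), and Krt6a with the block (-0.12). With 1 sample left out the log2 difference ranged from -0.45 to 0.85 for Krt1, from -0.29 to 0.053 for Krt23, from -0.95 to 0.19 for Krt4 and from -0.68 to 0.81 for Krt6a. The mean basal to luminal ratio ranged from 0.551 to 0.619 in intact and from 0.266 to 0.455 in castrated samples with 1 left out. The principal transcript length, added after the data were seen, gave 0.549 and 0.341. The cause of these changes was not tested. Depth limits the hair keratins, most of which had under 10 reads over all samples.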
